A study of Caenorhabditis elegans with 2 samples.

Results

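The heat shock protein and chaperone genes of Caenorhabditis elegans were examined for association with ZIM-3, a zinc finger protein known for binding chromosome pairing centres in meiosis, in chromatin immunoprecipitation followed by sequencing (ChIP-seq). The gene set held every protein-coding gene of the WBcel235 annotation whose name starts with hsp- (22 genes), dnj- (29 genes) or cct- (8 genes), plus F44E5.4 and F44E5.5. These were 61 of 19973 protein-coding genes, in 5 classes: 8 Hsp70 genes, 13 small Hsp genes, 29 DNAJ genes, 9 chaperonin genes, and hsp-90 with hsp-75. The animals were young adults of strain OP581, which carries the unc-119(tm4063) III allele and the integrated transgene wgIs581. The transgene encodes ZIM-3 with GFP and FLAG at its C-terminus, and the precipitation used an antibody against GFP. Whole animals of pooled sexes were collected 54.5 hours after release from starvation at the L1 stage. There was 1 group, with 2 biological replicates, from 1 transgenic strain. No untagged animals were analysed here, nor was the control experiment that the labels name as a possible match, and no animals were labelled as heat-shocked. The labels do not give the promoter or the tissues in which the transgene was active. Signal that depends on ZIM-3 and signal that any GFP precipitation would give therefore cannot be told apart here.

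Chaperones bind unfolded proteins and help them to fold, to refold or to be degraded. Hsp70 proteins work in cycles of ATP hydrolysis that DNAJ proteins, also called Hsp40 or J-domain proteins, start and that Hsp110 proteins reset. Small heat shock proteins hold unfolded proteins without ATP, and chaperonins form barrels, Hsp60 in mitochondria and the CCT complex in the cytosol, in which proteins fold. Many of these genes are transcribed more strongly after heat through the factor HSF-1, which binds heat shock elements, runs of the unit GAA in alternating orientation whose core reads GAANNTTC.

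Sequence at 9 chaperone summits is printed to show what lies under the signal of each class: the leading Hsp70 site, the constitutive hsp-1 and the endoplasmic reticulum gene hsp-3, the leading chaperonin, DNAJ, small Hsp and Hsp90 sites, and the highest small Hsp summit that lies in a promoter. Each run is 5′ to 3′ from the NCBI RefSeq WBcel235 genome (ce11 coordinates), in lower case, and capitals mark every match to GAANNTTC, which reads the same on both strands. The windows are 300 bp for F44E5.4 and hsp-16.2 and 200 bp for the others, each with the summit at its centre. They are F44E5.4 at chrII:11759330-11759629 (plus strand), hsp-1 at chrIV:17278454-17278653 (plus), hsp-3 at chrX:6092101-6092300 (minus), hsp-60 at chrIII:1619007-1619206 (plus), cct-8 at chrIV:1094247-1094446 (minus), dnj-13 at chrII:11545383-11545582 (plus), hsp-16.48 at chrV:9088807-9089006 (plus), hsp-90 at chrV:14685655-14685854 (plus) and hsp-16.2 at chrV:1805004-1805303 (plus). The F44E5.4 window holds 7 matches, hsp-60, cct-8 and hsp-16.2 hold 2 each, hsp-1, dnj-13 and hsp-90 hold 1 each, and hsp-3 and hsp-16.48 hold 0.
F44E5.4: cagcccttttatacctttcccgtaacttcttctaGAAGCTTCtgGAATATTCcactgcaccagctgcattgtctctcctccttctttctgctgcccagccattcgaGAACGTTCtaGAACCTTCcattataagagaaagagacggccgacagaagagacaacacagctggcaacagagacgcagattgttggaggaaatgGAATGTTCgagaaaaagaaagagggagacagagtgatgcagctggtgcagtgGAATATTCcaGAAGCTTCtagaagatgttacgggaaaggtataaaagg
hsp-1: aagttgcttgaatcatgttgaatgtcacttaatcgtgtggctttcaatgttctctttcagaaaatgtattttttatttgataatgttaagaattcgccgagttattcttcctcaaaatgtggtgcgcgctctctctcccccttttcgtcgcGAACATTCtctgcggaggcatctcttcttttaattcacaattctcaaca
hsp-3: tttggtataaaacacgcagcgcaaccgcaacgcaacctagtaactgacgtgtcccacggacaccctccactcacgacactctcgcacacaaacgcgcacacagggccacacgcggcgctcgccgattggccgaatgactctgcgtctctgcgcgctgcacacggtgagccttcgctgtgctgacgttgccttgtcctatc
hsp-60: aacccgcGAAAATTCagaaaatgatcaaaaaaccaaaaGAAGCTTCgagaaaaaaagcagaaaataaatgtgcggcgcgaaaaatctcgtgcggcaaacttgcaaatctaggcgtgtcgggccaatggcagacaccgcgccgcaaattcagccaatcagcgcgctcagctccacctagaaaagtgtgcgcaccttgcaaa
cct-8: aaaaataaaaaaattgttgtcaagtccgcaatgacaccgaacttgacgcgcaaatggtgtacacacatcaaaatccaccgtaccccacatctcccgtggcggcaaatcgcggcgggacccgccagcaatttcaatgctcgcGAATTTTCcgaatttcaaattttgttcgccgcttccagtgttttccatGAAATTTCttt
dnj-13: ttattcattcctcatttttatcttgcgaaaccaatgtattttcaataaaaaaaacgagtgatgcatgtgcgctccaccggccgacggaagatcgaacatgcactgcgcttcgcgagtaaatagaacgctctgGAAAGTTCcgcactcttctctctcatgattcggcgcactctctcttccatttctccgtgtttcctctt
hsp-16.48: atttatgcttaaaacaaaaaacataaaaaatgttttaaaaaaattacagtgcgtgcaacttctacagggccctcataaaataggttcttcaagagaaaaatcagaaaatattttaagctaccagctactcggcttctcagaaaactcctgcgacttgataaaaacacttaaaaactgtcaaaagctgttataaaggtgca
hsp-90: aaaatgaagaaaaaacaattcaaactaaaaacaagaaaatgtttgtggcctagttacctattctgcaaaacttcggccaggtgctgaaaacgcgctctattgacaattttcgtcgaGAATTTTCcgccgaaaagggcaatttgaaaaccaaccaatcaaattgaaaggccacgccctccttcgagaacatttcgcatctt
hsp-16.2: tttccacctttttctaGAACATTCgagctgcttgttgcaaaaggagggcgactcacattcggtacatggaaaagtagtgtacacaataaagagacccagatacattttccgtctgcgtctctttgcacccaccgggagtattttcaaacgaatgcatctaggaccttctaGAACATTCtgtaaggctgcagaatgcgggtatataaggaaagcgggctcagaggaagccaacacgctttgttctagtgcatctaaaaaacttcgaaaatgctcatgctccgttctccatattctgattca

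Each gene was scored by the region of highest signal whose summit lay within 1 kb of the gene start. Signal is the authors' value for each region, in their own units. It was read from a list of 30000 regions called on the pooled replicates, and from a list of 30000 regions for each replicate. The 906 highest regions of the pooled list are the peaks that passed the authors' irreproducible discovery rate (IDR) procedure, which asks whether replicates rank a peak alike, and are called IDR summits here. The lowest of them had a signal of 140.7. Signal ran from 38.5 to 611.1 in replicate 1 and from 15.1 to 239.0 in replicate 2, so values were compared within a list only, and the replicates are given side by side by signal and rank. The read depth behind them is unknown, and no mean or error was formed over the 2 scales. With 1 group no test was made, and genes were not treated as replicates.

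Chaperone genes had IDR summits at 12 of 61 starts (19.7%), against 500 of 19973 protein-coding genes (2.50%). The 12 genes shared 10 distinct summits, because F44E5.4 with F44E5.5, and hsp-16.48 with hsp-16.49, lie around 1 summit each. A region of any signal in the pooled list lay at 40 of 61 chaperone starts (65.6%), against 47.6% of all protein-coding genes. Both replicate lists held a region at 38 chaperone starts (62.3%), against 33.1% of all protein-coding genes. The 2 regions could differ in place, and 33 chaperone genes had summits of both replicates within 200 bp of each other. The share of all genes under that setting is not given here. Among genes with a pooled region, the median signal was 107.1 for the 40 chaperone genes, with a range of 54.9 to 558.7, and 71.3 for the 9474 other protein-coding genes, whose 5th to 95th percentiles ran from 52.5 to 142.8. The other 28 chaperone genes with a pooled region stood below the IDR limit, nearest to it cct-1 with 137.0 and dnj-28 with 136.2, while hsp-16.48 and hsp-16.49 stood just above it with 148.8. Of the 21 without a pooled region, 11 had a region in a replicate list and 10 had none in any list. Those 10 of 61 compare with 7528 of 19973 protein-coding genes that had none in any list.

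**Figure D1:**
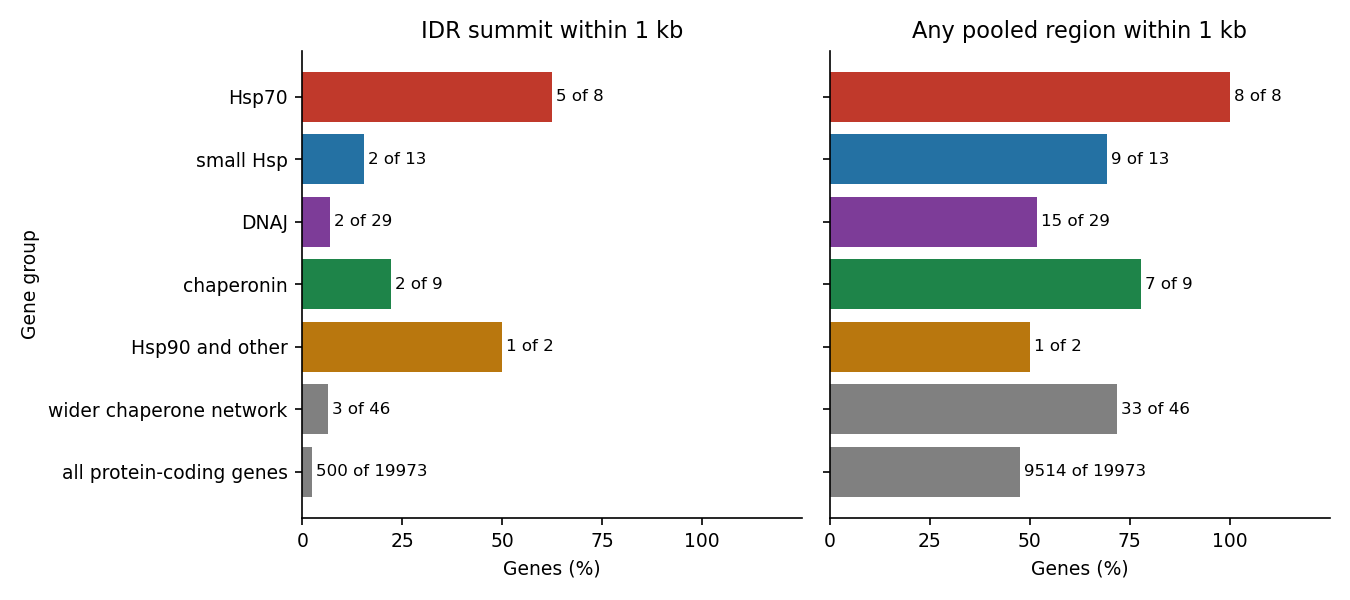
Share of genes (%, x axis) in each group (y axis) with an IDR summit within 1 kb of the start (left) and with any region of the pooled list there (right), with the counts beside the bars. Hsp70 genes lead in both panels with 5 of 8 and 8 of 8, and DNAJ genes, with 15 of 29 pooled regions, are the closest to all protein-coding genes on the right apart from the pair of Hsp90 and other genes.

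The classes differed. IDR summits lay at 5 of 8 Hsp70 genes (62.5%), 2 of 13 small Hsp genes (15.4%), 2 of 29 DNAJ genes (6.9%), 2 of 9 chaperonin genes (22.2%) and hsp-90 but not hsp-75. Pooled regions of any signal lay at 8 of 8 Hsp70, 9 of 13 small Hsp, 15 of 29 DNAJ and 7 of 9 chaperonin genes. The DNAJ share, 51.7%, was near the 47.6% of all genes. Median signal over the genes with a region was 199.4 for Hsp70, 124.1 for small Hsp, 90.6 for DNAJ and 114.5 for chaperonin genes, against 71.3 for the other protein-coding genes. With each shared summit counted once, a setting added after the data were seen, the medians were 152.5 for Hsp70, 82.4 for small Hsp, 90.6 for DNAJ and 114.5 for chaperonin genes, against 70.9 for the others. The small Hsp median then stood below those of the DNAJ and chaperonin genes.

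**Figure D2:**
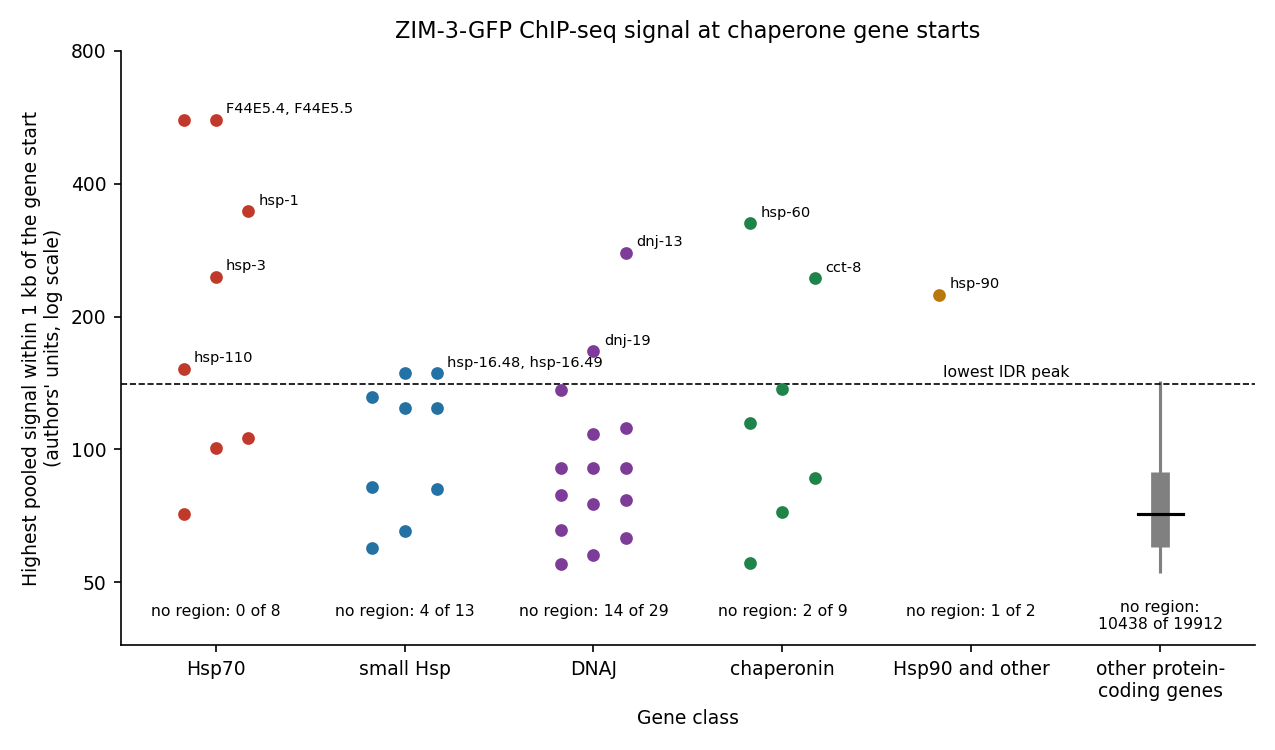
Highest pooled signal within 1 kb of the start (authors' units, log scale) for each chaperone gene with a region, by class, beside the other protein-coding genes, for which the line is the median, the bar the quartiles and the whisker the 5th to 95th percentiles. The dashed line is the lowest IDR peak, 140.7, and the counts below give the genes with no pooled region. The F44E5.4 and F44E5.5 points stand highest at 558.7.

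The highest chaperone signal belonged to F44E5.4 and F44E5.5, a divergent pair of genes for inducible cytosolic Hsp70. Their shared summit at II 11759479 lay between them, 168 bp upstream of F44E5.4 and 183 bp upstream of F44E5.5, with a pooled signal of 558.7 and rank 8. In replicate 1 the matched region, the one with the nearest summit within 200 bp, had a signal of 440.4 and rank 8, and in replicate 2 a signal of 123.5 and rank 17. The summit was thus among the leading regions of both replicates. The transcribed spans are nearly copies, identical at 99.7% of the shorter one, and the 350 bp between them matched their own reverse complement at 75.1% of bases. The sources used here do not give how the authors placed reads that map to both arms, so the signal of the pair cannot be divided between the 2 genes.

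The next Hsp70 summits lay at genes for the forms present without stress. Upstream of hsp-1, which encodes the constitutive cytosolic Hsc70, the summit at IV 17278553 lay 406 bp before the start, with a pooled signal of 347.2 (rank 46), 259.7 in replicate 1 (rank 42) and 90 in replicate 2 (rank 71). A second pooled region with a summit 232 bp from the hsp-1 start had a signal of 132.5. At hsp-3, which encodes a BiP-type Hsp70 of the endoplasmic reticulum, the summit at X 6092200 lay 76 bp upstream, with a pooled signal of 246.3 (rank 164), 148.2 in replicate 1 (rank 311) and 92.8 in replicate 2 (rank 64). Both sites kept high ranks in both replicates, with hsp-3 ranked higher in replicate 2 and hsp-1 in replicate 1. The hsp-110 summit, at III 8446195, lay 714 bp into the gene in a coding exon, with a pooled signal of 152.5 (rank 691). It had 129.3 in replicate 1 (rank 485) but 30.1 in replicate 2 (rank 4287), so it was among the 906 highest regions of replicate 1 but not of replicate 2. On the promoter side of hsp-110 a second pooled region, 480 bp upstream, had 94.4 (rank 4395), and the highest replicate 2 region of the gene lay 247 bp upstream with 30.8 (rank 3841). Hsp110 proteins exchange the nucleotide of Hsp70.

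The remaining Hsp70 genes stood below the IDR limit. The region at hsp-4, the other BiP gene, which rises in the unfolded protein response, had a pooled signal of 105.9 (rank 2723) with its summit 238 bp into the gene. Upstream of hsp-6, the mitochondrial Hsp70 gene, the pooled signal was 100.6 (rank 3372). At hsp-4 the highest replicate 1 region, 377 bp into the gene, had 71.9 (rank 4377), a second one nearer to the pooled summit had 50.5 (rank 15670), and replicate 2 had 34.9 (rank 2283). At hsp-6 replicate 1 had 50.8 (rank 15324) and replicate 2 had 38.6 (rank 1457). Both genes thus ranked higher in replicate 2. The lowest value of the class was that of hsp-70, another inducible cytosolic Hsp70 gene, at 71.6 (rank 12462), with the summit 865 bp into the gene in a coding exon. A second pooled region 294 bp upstream of hsp-70 had 66.9 (rank 15368), and that upstream region was the higher one in replicate 1, with 63.5 (rank 7229) against 46.9 at the exon, while replicate 2 listed only the exon region, with 24.3 (rank 9342). The hsp-70 value lies near the median of other protein-coding genes, while F44E5.4, whose transcribed span matches that of hsp-70 at 78.8% of bases, had 558.7.

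Small Hsp genes had lower values than the leading Hsp70 genes, and their highest summit was not in a promoter. It lay at V 9088906 between the convergent 3′ ends of hsp-16.48 and hsp-16.49, 775 bp and 860 bp from their starts, with a pooled signal of 148.8 (rank 747), 107.2 in replicate 1 (rank 866) and 40.3 in replicate 2 (rank 1198). These genes encode HSP-16 proteins, which are induced by heat. The hsp-16.48 and hsp-16.49 spans were identical in every base, and hsp-16.1 and hsp-16.11 matched over all 490 bases of the shorter span, so reads within these copies are uncertain as to gene. The hsp-16.1 and hsp-16.11 starts lay 1124 bp and 1171 bp from the same summit and had no region within 1 kb in any list. Cut to the 906 highest regions of replicate 2 alone, the class kept 1 gene, hsp-12.3, in place of this pair.

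At the divergent pair hsp-16.2 and hsp-16.41 the summit did lie between the starts, at V 1805153, 196 bp upstream of hsp-16.2 and 25 bp upstream of hsp-16.41. Its pooled signal was 124.1 (rank 1423), with 76.5 in replicate 1 (rank 3358) and 39.6 in replicate 2 (rank 1294). The pair was therefore above most protein-coding genes with a region but below the IDR limit. The hsp-12.3 region, in the 3′ UTR 637 bp from the start, had a pooled signal of 131.8 (rank 1137), with rank 4793 in replicate 1 and rank 640 in replicate 2, and its summit was 107 bp from the snoRNA-class gene F38E11.11. The part of that neighbour in the value was not tested. Values within the quartiles of other protein-coding genes, 60 to 89.0, were found at hsp-25 (82.4), hsp-17 (81.5) and hsp-43 (65.2), and hsp-12.1 had 59.7. Neither hsp-12.2 nor hsp-12.6 had a region within 1 kb in any list, with the nearest pooled summits at 1110 bp and 2358 bp.

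DNAJ genes, the largest class, had IDR summits at 2 of 29. Upstream of dnj-13, a J-domain gene whose product works with HSP-1 and HSP-110 in dissolving protein aggregates, the summit at II 11545482 lay 219 bp before the start, inside an intron of dhgd-1. Its pooled signal was 279.1 (rank 106), with 198.7 in replicate 1 (rank 130) and 83.1 in replicate 2 (rank 91). At dnj-19 the summit, at V 5505313, lay 456 bp upstream but only 60 bp from the start of nhr-47, a nuclear receptor gene, in whose 5′ UTR it falls. It had a pooled signal of 167.0 (rank 527), 119.1 in replicate 1 (rank 623) and rank 616 in replicate 2. Both DNAJ sites thus held similar ranks in the 2 replicates. Below the limit, dnj-28 had 136.2 (rank 1021), dnj-2 had 111.9 (rank 2131) and dnj-9 had 108.4 (rank 2442). In replicates 1 and 2 matched regions ranked 1180 and 1734 for dnj-28, 1884 and 14755 for dnj-2, and 1825 and 18946 for dnj-9. The dnj-2 summit lay 830 bp upstream, in a coding exon of B0035.3 and 188 bp from the start of that gene. The remaining DNAJ regions lay between 54.9 and 91.0, against quartiles of 60 to 89.0 for other protein-coding genes, and 14 DNAJ genes had no pooled region.

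The chaperonin class was led by hsp-60, the gene of the mitochondrial chaperonin. Its summit at III 1619106 lay 636 bp upstream, with a pooled signal of 325.5 (rank 65), 222.1 in replicate 1 (rank 78) and 96.9 in replicate 2 (rank 53). The nearest start was that of Y22D7AL.10, 177 bp away, which RefSeq names as the mitochondrial 10 kDa heat shock protein, the lid of the Hsp60 barrel. The summit therefore stood among genes for both partners of the mitochondrial chaperonin. Of the 8 cct genes, which encode subunits of the cytosolic CCT ring, 1 had an IDR summit. That summit, at IV 1094346, lay 426 bp upstream of cct-8 and 195 bp from the start of Y55F3AR.2, with a pooled signal of 244.0 (rank 169), 189.2 in replicate 1 (rank 153) and 55.6 in replicate 2 (rank 362). The highest values near the starts of the ring's subunit genes differed, and so did the places of their summits. Values were 137.0 for cct-1, whose summit was nearest to mig-5, then 114.5 for cct-5, 86.2 for cct-4, 72.0 for cct-7 and 55.3 for cct-6, while cct-2 and cct-3 had no pooled region. The cct-5, cct-4 and cct-6 summits lay in coding exons, 397, 687 and 968 bp into the genes. That of cct-7 was nearest to the start of T10B5.4 and had no match in replicate 1.

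The hsp-90 gene, which encodes the cytosolic Hsp90, had its highest summit at V 14685754, in an intron 836 bp after the gene start and 406 bp upstream of its other annotated transcript start. The pooled signal was 224.3 (rank 221). Replicate 1 had 199.9 (rank 126) and replicate 2 had 29.4 (rank 4659), and without replicate 1 hsp-90 had no place among the 906 highest regions. The start of C47E8.4 was nearest, at 269 bp. No pooled region lay within 1 kb of hsp-75, where the nearest summit was 3883 bp away.

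IDR summits lay upstream of 8 of the 12 genes (66.7%), against 333 of the 500 protein-coding genes with an IDR summit (66.6%), so an upstream place was no more common at chaperone genes. Of the 10 distinct summits, 6 were outside protein-coding genes, 2 in introns, 1 in a coding exon and 1 in a 5′ UTR. Another gene's start was nearest at 4 of them, those of hsp-60, cct-8, dnj-19 and hsp-90. Genes for tRNA, snoRNA or snRNA lay no closer than 1493 bp to any of the 10, that distance being at hsp-1. When summits within 500 bp of such genes were left out, chaperone genes kept 12 of 61 and all protein-coding genes kept 383 of 500. At the 1 kb limit, cct-6 (968 bp) and dnj-22 (969 bp) were just inside, and hsp-12.2 (1110 bp), dnj-3 (1116 bp) and hsp-16.1 (1124 bp) just outside.

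**Figure D3:**
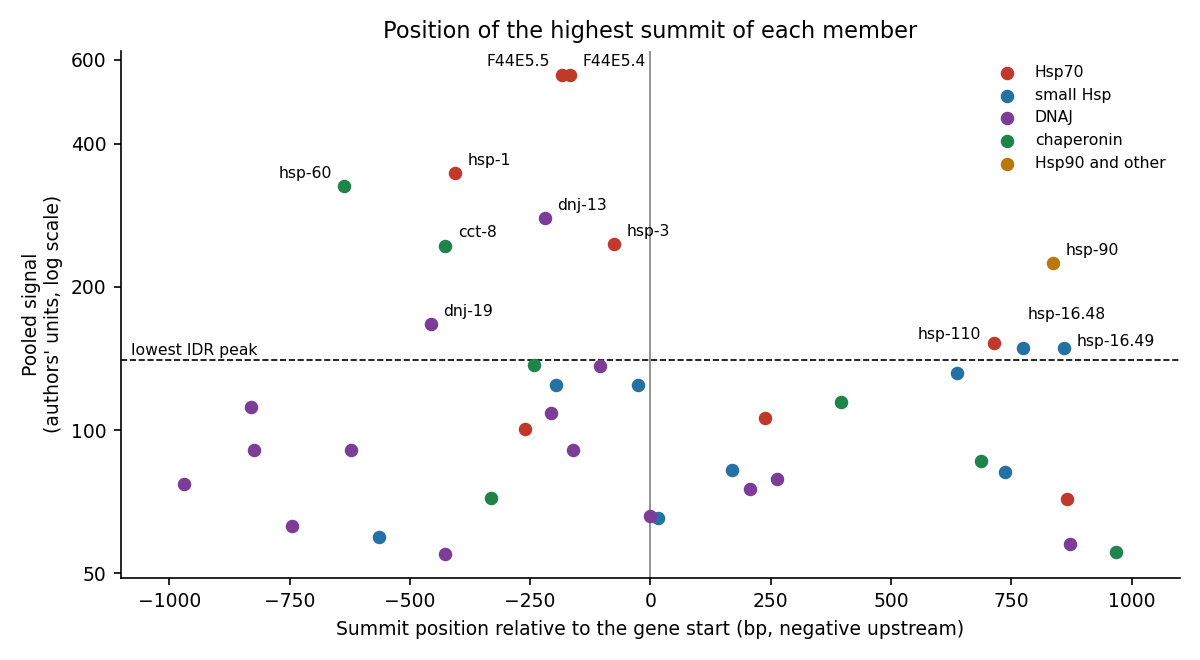
Distance of the highest summit from the gene start (x axis, bp, negative upstream) against pooled signal (y axis, authors' units, log scale) for the 40 chaperone genes with a pooled region, coloured by class; the dashed line is the lowest IDR peak. The highest signals lie upstream, from hsp-60 at 636 bp to hsp-3 at 76 bp, and hsp-90, hsp-110 and the hsp-16.48 pair lie to the right of the start at 714 bp or more.

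The leading chaperone summits passed the IDR procedure, which selects for like ranks, so agreement between replicates is in part built in. The 2 replicates ranked most of these summits alike, with a few clear exceptions. Among the 906 highest regions of each list, replicate 1 held all 12 of the genes with an IDR summit and replicate 2 held 8 of them, with hsp-110, hsp-16.48, hsp-16.49 and hsp-90 missing. Replicate 1 signal was a median 2.76 times that of replicate 2 over the 894 IDR peaks matched in both, with 5th to 95th percentiles of 1.65 to 4.9. The ratio at hsp-90 was 6.8, above that range, and at hsp-3 it was 1.6, just below it. The other chaperone IDR summits lay between 2.29 for hsp-60 and 4.3 for hsp-110, within the range. Ranks beyond 3000 in replicate 2, as at hsp-90 and hsp-110, were held by 11.7% of matched IDR peaks. Over the 37 distinct pooled summits of chaperone genes, 34 had a match in replicate 1, 31 in replicate 2 and 29 in both. Of the 29, 19 were not IDR summits. The matching share over all pooled summits is not given here. Pooled regions were called on both replicates together, so these counts do not set chaperone genes apart from other genes.

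**Figure D4:**
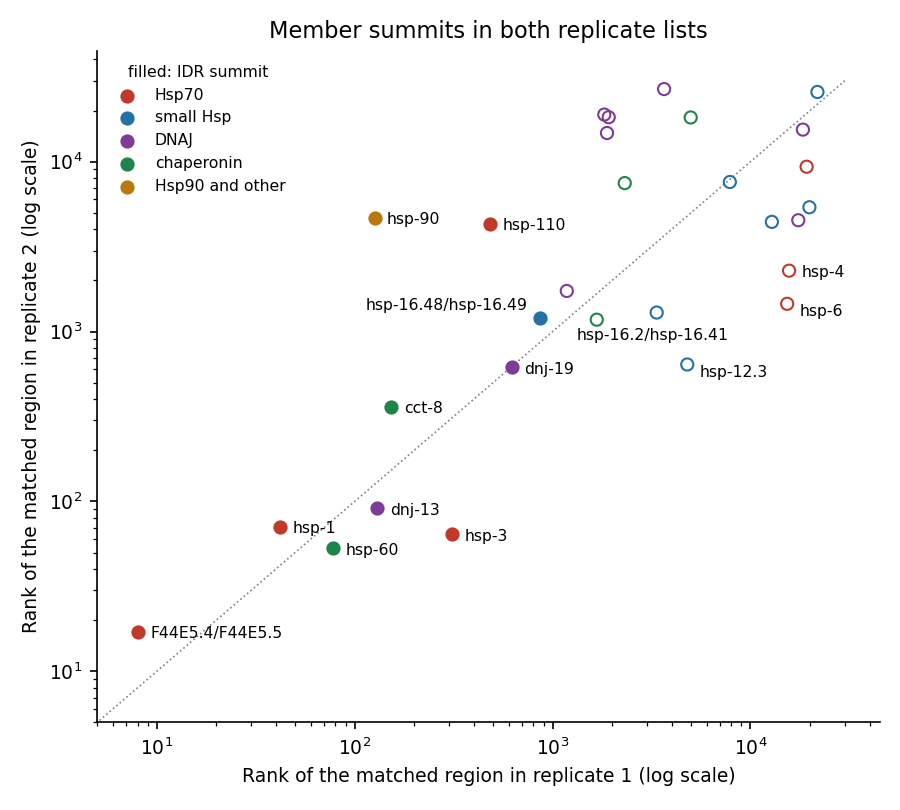
Rank of the matched region (the nearest within 200 bp of the pooled summit) in replicate 1 (x axis) against replicate 2 (y axis), both on log scales where a low rank is a high signal, for the 29 chaperone summits matched in both; filled points are IDR summits and the dotted line marks equal ranks. F44E5.4 with F44E5.5 stands lowest at ranks 8 and 17, while hsp-90 and hsp-110 lie far above the line.

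Heat shock element cores were common under the leading summits and in chaperone promoters. Within 300 bp windows centred on the summit, GAANNTTC occurred at 7 of the 10 chaperone IDR summits (70%), against 154 of all 906 IDR summits (17%). The summit of F44E5.4 and F44E5.5 held 7 matches, which was also the most at any IDR summit. Summits of hsp-1, hsp-60 and cct-8 held 2 each, those of dnj-13, dnj-19 and hsp-90 held 1 each, and those of hsp-3, hsp-110 and hsp-16.48 held 0. The second hsp-1 match lies outside the shorter window printed above. The other phase of the element, TTCNNGAA, occurred at 3 of 10 and at 149 of 906. A 3-unit element, meaning either core with the next unit in place, occurred at 2 of 10, those of F44E5.4 and hsp-60, and at 20 of 906 (2.21%), and it overlaps the cores counted above by its definition.

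Over the 27 distinct pooled summits of chaperone genes that were not IDR summits, GAANNTTC occurred at 7 (25.9%), against 4996 of all 29094 such summits (17.2%). The other phase, TTCNNGAA, occurred at 11 of the 27 (40.7%), against 17.6% of all such summits. Its share was thus above the 3 of 10 at IDR summits, while that of GAANNTTC was below the 7 of 10. The 3-unit element occurred at 3 of the 27, under hsp-6, hsp-16.2 and dnj-12, of which dnj-12 is named because of this count, and at 1.44% of all such summits. In promoters, taken as 250 bp before to 50 bp after the gene start, GAANNTTC occurred in 27 of 61 chaperone genes (44.3%) and in 18.5% of all protein-coding genes. The 3-unit element occurred in 13 of 61 (21.3%) and in 1.97%. By class the 3-unit element was in 5 of 8 Hsp70, 6 of 13 small Hsp, 1 of 29 DNAJ and 0 of 9 chaperonin promoters, and in that of hsp-90.

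Element and signal often did not go together. Of the genes with an IDR summit and the 3-unit element in the promoter, only F44E5.4 and F44E5.5 also held it in the summit window. Promoters of hsp-1, hsp-16.48 and hsp-16.49 held 1 match to it each and that of hsp-90 held 2, with no 3-unit match at their summits. The hsp-16.1 and hsp-16.11 promoters each held 2 matches to the 3-unit element, and neither gene had a region within 1 kb in any list. The starts of hsp-16.1 and hsp-16.11 lay 1124 bp and 1171 bp from the IDR summit of hsp-16.48 and hsp-16.49. These genes are copies, and the part of read placement in the missing regions was not tested. The hsp-70 promoter held 1 match to the 3-unit element and that of hsp-110 held 2. The highest pooled regions of both lay over coding exons, with the lower regions upstream given above. The hsp-3 summit, with a signal of 246.3, had no match to either core in its window and a GC content of 57.0%, the highest of the 10, whose median was 40.3% against 42.7% for all IDR summits. These matches describe letters in the reference sequence, and binding of HSF-1 was not measured.

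**Figure D5:**
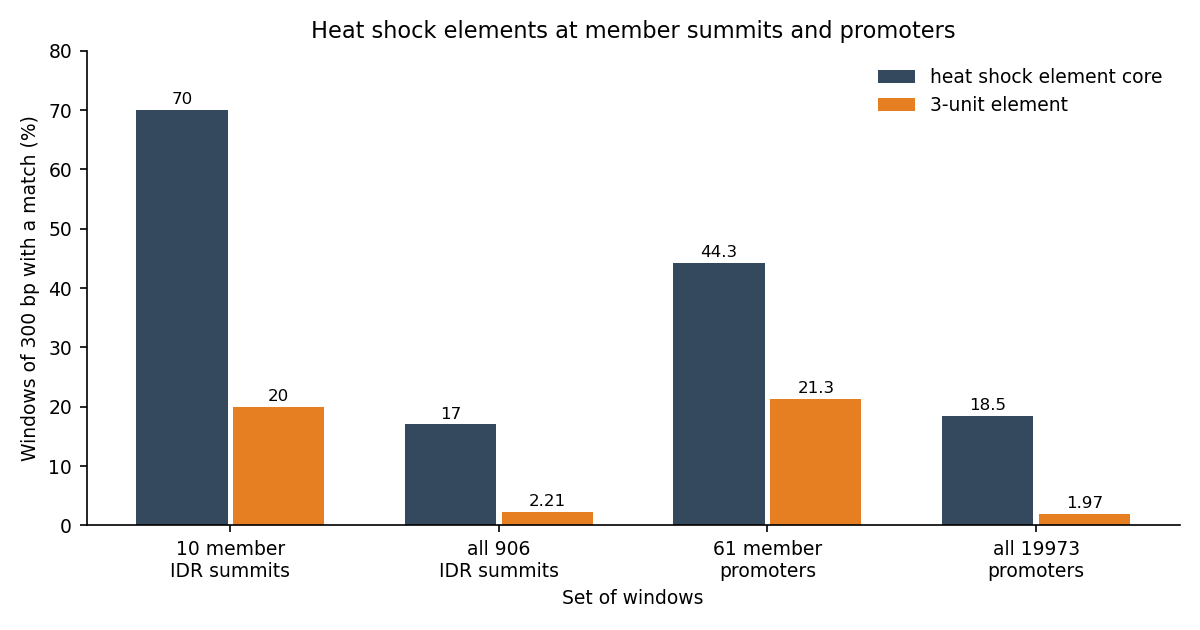
Share of 300 bp windows (%, y axis) with at least 1 match to the core GAANNTTC (dark) or the 3-unit element (orange) at chaperone IDR summits, all IDR summits, chaperone promoters and all promoters of protein-coding genes. The core share is 70% at the 10 chaperone IDR summits against 17% at all 906, and 44.3% against 18.5% in promoters.

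Other genes of protein folding outside the naming rule were taken from a list of 46: co-chaperones, prefoldin subunits, protein disulphide isomerases, proteases, stress regulators, and chaperones with other names such as sip-1, a small heat shock protein gene, and enpl-1, the Hsp90 gene of the endoplasmic reticulum. Of these, 3 had IDR summits (6.52%) and 33 had a pooled region (71.7%), against 2.50% and 47.6% of all protein-coding genes. The highest was cdc-48.1, which encodes the AAA ATPase that extracts ubiquitinated proteins, with a pooled signal of 362.9 (rank 41) 163 bp upstream, 282.8 in replicate 1 (rank 35) and 77.5 in replicate 2 (rank 117). Next came the BAG-domain co-chaperone genes of Hsp70, bag-1 with 217.4 (rank 238) 175 bp upstream and unc-23 with 169.7 (rank 507) 51 bp upstream. Both had regions in each replicate, bag-1 at ranks 246 and 388 and unc-23 at ranks 652 and 448 in replicates 1 and 2. All 3 summits were upstream and outside protein-coding genes. Among the 906 highest regions of replicate 2 alone the list had 5 of 46 genes, against 2.45% of all protein-coding genes. The gene of the heat shock factor itself, hsf-1, had no region within 1 kb in any list, and hsb-1, which encodes an HSF-1 binding protein, had a pooled signal of 55.3.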

How the data were processed

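Tagged ZIM-3 was profiled by ChIP-seq in 2 biological replicates of whole young adults. For each replicate, and for the pooled replicates, the authors deposited a list of peaks and background on ce11, plus an IDR-thresholded list. The signal value of each region (column 7 of the deposited lists) and its summit offset were used as given. The sources used here do not give the aligner, peak caller, normalization or IDR threshold. The pooled list and each replicate list held 30000 regions, so an absent region may only have fallen below the lowest one kept. The treatment of reads that match several places is not given either, so absence at copied genes is uncertain. No counts were given, so depth is unknown. The lists on ce10 were not used.

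Gene starts came from Ensembl release 115 (WBcel235). In 2 pairs of genes with the same name, hsp-16.11 and hsp-16.49 were told apart by RefSeq symbols at identical coordinates. A summit within 1 kb of a start was assigned to every such gene, and a summit within 200 bp counted as its match in another list. Motifs were read on both strands of the RefSeq genome. Python 3.11.15, pandas 2.3.3, numpy 2.4.6 and Biopython 1.88 were used, and the scoring recovered the genes placed in simulated lists.

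The genes and lists were chosen with earlier results of these data known. Genes named are all Hsp70 and small Hsp genes, chaperone genes with a pooled rank up to 5000, the 3 highest of each class, and genes of the wider list with an IDR summit. Genes that mark a limit or a small count, cct-6, dnj-22, dnj-3, the other cct genes, hsf-1, hsb-1 and those in the closing section, were named after their values were seen. Alternatives were the distance, the gene start, the assignment to the nearest gene, each replicate alone, a stricter IDR limit, small RNA neighbours and the motif window.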

Additional observations from a re-analysis of the deposited data

How the results depend on the processing

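With 1 group, 2 replicates on different signal scales and no control analysed, values describe these lists, and depth limits them to an unknown degree. No paired analysis was possible because there was 1 group. Of the 12 chaperone genes with an IDR summit, 7 were left within 500 bp of the start and 6 when a summit counted only for its nearest gene. Under these settings in the same order, small Hsp genes numbered 0 and 1, chaperonin genes 1 and 0, and Hsp90 and other genes 0 and 0. The nearest-gene setting left 1 DNAJ gene. Both settings can only remove summits. The shares were 11.5% of chaperone genes against 1.62% of all within 500 bp, and 9.84% against 1.98% under the nearest-gene setting, where all protein-coding genes kept 395 of 500. Within 2 kb, small Hsp genes numbered 4 and genes of the wider list 5, against 4.25% of all genes. The 4 small Hsp genes were hsp-16.48, hsp-16.49, hsp-16.1 and hsp-16.11, which all rest on 1 summit with a signal of 148.8. In the 453 highest IDR peaks, chaperone genes numbered 8 (13.1%), against 1.41% of all protein-coding genes. Small Hsp genes there numbered 0 and DNAJ genes 1. With 1 replicate left out, the counts ran from 9 to 12 for all chaperone genes and 4 to 5 for the wider list. They ran from 1 to 2 for small Hsp genes and 0 to 1 for Hsp90 and other genes. Shares were 14.8% of chaperone genes against 2.45% of all without replicate 1, and 19.7% against 2.56% without replicate 2. The cause of these shifts was not tested. Genes with a region in both replicates numbered 22 within 500 bp and 24 under the nearest-gene setting, instead of 38. With summits of both replicates within 200 bp of each other they numbered 33. Shares over all protein-coding genes are not given for these settings. The median signal was 105.9 within 500 bp, 108.4 with all transcript starts, 90.6 under the nearest-gene setting and 100.6 with each summit counted once, a setting chosen after seeing the data. The core was found at 4 of 10 summits within 50 bp, a setting for which the share of all IDR summits is not given here. Its other phase was found at 3 of 10 within the full window, against 149 of all 906 IDR summits. The median without a replicate was not run, because the lists differ in scale. In all, 50 of 74 alternative values stayed within 1.5 times the reported count, or unmoved for the median, and 24 did not.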

Other observations

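Several chaperone genes and genes of the wider list had regions that the scoring at the gene start did not show, and they were looked up after their values were seen. At dnj-24, a J-domain gene, no pooled region lay within 1 kb, but replicate 1 had a region of signal 92.9 (rank 1516) 148 bp after the start and replicate 2 one of 36.3 (rank 1932) 22 bp after it. The nearest pooled summit was 2408 bp into the gene, with a signal of 124.4. Regions in both replicate lists but none in the pooled list were found at 2 of 61 chaperone genes, dnj-24 and cct-2 (3.28%), against 266 of all protein-coding genes (1.33%). At cct-2 the highest regions were at different places, 337 bp after the start in replicate 1 and 914 bp in replicate 2.

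An IDR summit with a signal of 161.1 (rank 583) lay in a coding exon of dnj-20, within 1 kb of another annotated transcript start of that gene. Within 2 kb of the start, IDR summits were also found at xbp-1, a transcription factor of the unfolded protein response (signal 214.9, at 1799 bp), and at daf-41, the p23 co-chaperone of Hsp90 (156.6, at 1270 bp). The gene ubl-5, of the mitochondrial unfolded protein response, had a replicate 1 region of signal 151.6 (rank 290) within 1 kb and none there in replicate 2 or the pooled list.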
